A study of Mus musculus with 14 samples.

Results

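The IL-1 receptor family cluster on mouse chromosome 1 holds 6 neighbouring receptor genes, Il1r2, Il1r1, Il1rl2, Il1rl1, Il18r1 and Il18rap. Its accessible chromatin was described here as the 104 windows, of 240778 in the whole series, whose centre had 1 of these genes as the nearest protein-coding start site within 100 kb. Each window spans 201 bp around a peak summit of ATAC-seq, an assay in which a transposase cuts and tags open chromatin. Il1r2 had 38 of the 104 windows, Il18r1 had 21, Il1rl2 had 13, Il1rl1 had 12, and Il1r1 and Il18rap had 10 each. No member window passed the test for a difference between genotypes or days. Il1rl1 had a lower estimate in the degrader mice at all 12 of its windows over both days, none of them past the threshold after adjustment. With windows assigned by curated start sites, an alternative chosen after seeing the data, 13 of 16 were lower.

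Regulatory T (Treg) cells were sorted from the spleens and lymph nodes of adult mice and compared between 2 genotypes and 2 days. All mice carried Foxp3-AID, a Foxp3 allele that adds an auxin-inducible degron to the protein. Mice with R26TIR1(F74G) (labelled ROSA26-TIR1(F74G)) also express TIR1(F74G), a plant ligase component that, bound to the ligand 5-ph-IAA, marks the fusion protein for degradation. R26WT mice lack it, and both genotypes received 5-ph-IAA. On day 3 of treatment there were 4 R26TIR1(F74G) and 4 R26WT mice, and on day 7 there were 3 of each, 14 libraries in all. The control cells therefore also carried the degron allele and the ligand. By the study's methods the Foxp3-AID allele also encodes ZsGreen and Cre recombinase, and Cre removes a stop cassette from the R26 allele. TIR1(F74G) is thereby limited to cells that have expressed Foxp3. The study used heterozygous female mice for its day 7 sorts. It states that their Treg cells with wild-type Foxp3 are not affected and keep the immune tone of both genotypes comparable. The sort of R26TIR1(F74G) cells additionally required mCherry, whereas R26WT cells were gated on ZsGreen, and this difference in gates cannot be told apart from genotype. The study describes resting and activated cells on day 7, but the labels name only Treg cells, so no value is given by activation state.

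The signalling receptors of the IL-1 family sit in the membrane and share an intracellular TIR domain, which recruits the adaptor MyD88 after a ligand and an accessory chain have bound. Il1rl1 encodes ST2, the receptor of the alarmin IL-33, which is known for its role in Treg cells of non-lymphoid tissues. Il18r1 and Il18rap encode the ligand-binding and accessory chains of the IL-18 receptor, Il1rl2 encodes the receptor of IL-36 cytokines, Il1r1 encodes the signalling receptor of IL-1, and Il1r2 encodes a decoy that binds IL-1 without signalling.

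Each library held between 5653289 and 20184487 counts in windows, of which 1209 to 3901 lay in the member windows. The shallowest were the day 3 R26TIR1(F74G) replicate 1 and the day 7 R26WT replicate 3 (5653289 and 6348754 counts). Accessibility is given as CPM, the count scaled to the size of its library after normalization for composition. The protein and not the gene was targeted, so these libraries hold no direct check of degradation. Member windows were sparse, with a median of the mean count of 18.2 against 25.9 over all windows, and 13 of the 104 had a mean count of at least 50. No window of the series averaged fewer than 10.07 counts, so a site without a window may be weakly accessible rather than closed. Of 9 marker genes of Treg and T cells, 7 had a window within 1 kb of a start site. No such window was analysed here for Foxp3 or Tnfrsf18. Among the 7, Cd28 was the most accessible at 21.5 CPM and Ikzf4 the least at 3.20 CPM, with Cd3e at 11.2 and Cd4 at 4.55 CPM. B cell markers had a window for 1 of 5 genes (Ebf1, 3.50 CPM), myeloid markers for 3 of 5 (up to 4.48 CPM at Cd14), and CD8 T cell markers for 2 of 2 (up to 12.5 CPM at Cd8b1). Among 5 markers of mast cells and basophils, which also use Il1rl1, only Kit had a window, and its summed level of 1.56 to 2.95 CPM in R26WT and 1.80 to 3.54 CPM in R26TIR1(F74G) mice on day 3 overlapped between genotypes. On day 7 it was 2.20 to 3.00 and 1.87 to 2.25 CPM in the same order. Of 7 genes of effector and tissue Treg cells, 5 had a window, led by Prdm1 at 30.2 CPM, and Rora and Klrg1 had none. In bulk libraries, fewer cells of a type and less accessibility per cell cannot be told apart.

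The promoters differed in whether an accessible window lay at them, and for that reason 1 start site with a nearby window is shown for Il1rl2, Il18r1, Il18rap and Il1r2, beside both start sites of Il1rl1, which had none. Each is the 250 bases before a curated RefSeq start site (GRCm38.p6, chromosome 1, plus strand), 5′ to 3′, named by its gene and the position of the start site. Capitals mark matches, on either strand, to 1 of 9 motifs, which were TGTTTAC for forkhead factors, AGATAA for GATA factors, TGANTCA for the AP-1 complex, TTCNNNGAA for STAT factors, ACCACA for Runx factors, ACAGGAAG for ETS factors, CTTTGAT for TCF factors, GGAATTTCC for NF-kB dimers and AGGTGTGA for T-box factors. No motif overlapped another in these promoters.
Il1rl1 40429570: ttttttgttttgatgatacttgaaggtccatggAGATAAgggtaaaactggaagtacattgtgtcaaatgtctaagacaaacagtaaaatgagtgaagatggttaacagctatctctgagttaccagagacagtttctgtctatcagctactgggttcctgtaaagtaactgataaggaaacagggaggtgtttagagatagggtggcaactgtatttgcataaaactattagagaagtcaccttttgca
Il1rl1 40439629: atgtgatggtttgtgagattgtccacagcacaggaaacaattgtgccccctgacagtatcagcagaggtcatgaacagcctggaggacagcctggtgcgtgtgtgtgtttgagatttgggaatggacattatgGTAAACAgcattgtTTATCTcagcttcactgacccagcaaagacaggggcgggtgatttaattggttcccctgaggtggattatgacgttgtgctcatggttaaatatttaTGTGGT
Il1rl2 40324589: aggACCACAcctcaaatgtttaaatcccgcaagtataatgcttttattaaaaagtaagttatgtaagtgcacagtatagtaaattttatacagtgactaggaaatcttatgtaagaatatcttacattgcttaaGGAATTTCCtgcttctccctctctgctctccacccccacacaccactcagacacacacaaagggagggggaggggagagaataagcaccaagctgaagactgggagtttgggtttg
Il18r1 40465552: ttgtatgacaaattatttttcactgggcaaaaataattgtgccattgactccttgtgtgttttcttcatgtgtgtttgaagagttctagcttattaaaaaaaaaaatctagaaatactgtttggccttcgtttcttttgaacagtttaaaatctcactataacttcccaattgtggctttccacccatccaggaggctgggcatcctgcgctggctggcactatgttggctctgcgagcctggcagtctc
Il18rap 40515362: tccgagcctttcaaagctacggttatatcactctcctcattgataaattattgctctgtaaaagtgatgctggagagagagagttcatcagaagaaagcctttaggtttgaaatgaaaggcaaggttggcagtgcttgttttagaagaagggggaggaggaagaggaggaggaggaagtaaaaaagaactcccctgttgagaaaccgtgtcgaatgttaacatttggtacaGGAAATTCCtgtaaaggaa
Il1r2 40086093: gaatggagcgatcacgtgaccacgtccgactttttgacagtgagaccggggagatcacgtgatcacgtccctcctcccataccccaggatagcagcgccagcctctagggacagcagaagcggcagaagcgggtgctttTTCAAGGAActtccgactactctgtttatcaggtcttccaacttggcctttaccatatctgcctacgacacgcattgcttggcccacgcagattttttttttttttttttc

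Il1rl1 has 2 curated start sites. The upstream one held a GATA match at -217 bp, and the downstream one held forkhead, GATA and Runx matches at -117, -103 and -6 bp. These letters occurred in 2.64% (forkhead), 8.84% (GATA) and 12.2% (Runx) of 21045 promoters of the same length. Il1rl2 held a Runx match at -247 bp and an NF-kB match at -116 bp, Il18rap an NF-kB match at -19 bp, and Il1r2 a STAT match at -111 bp. The NF-kB letters occurred in 0.323% and the STAT letters in 6.64% of promoters. The Il18r1 promoter shown held none of the 9 motifs, whereas 2 STAT matches, at -219 and -152 bp, lay before another start site of the gene at 40466006. Both promoters of Il1r1 held none. AP-1, ETS, TCF and T-box letters, which matched no promoter of the cluster, occurred in 6.17%, 2.64%, 2.85% and 1.01% of promoters. A match describes letters in this stretch and is not evidence of binding.

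Accessibility was not spread evenly along the genes, as the map of mean CPM by distance shows. The 104 windows lay between 40000966 and 40545291 on chromosome 1 (GRCm38) and, with overlapping windows joined, formed 62 regions. Windows that overlap share reads, which applied to 68 of the 104. The bodies of protein-coding genes, including Map4k4 upstream of Il1r2, held the centres of 80 windows, and 24 lay between genes. Exons and introns were not distinguished here. Of 10 curated start sites of the 6 genes, 7 (70%) had a window centre within 1 kb, against 56.6% of 21045 start sites of all genes. The 3 without one were both Il1rl1 start sites and the upstream start site of Il1r1 at 40225080.

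**Figure D1:**
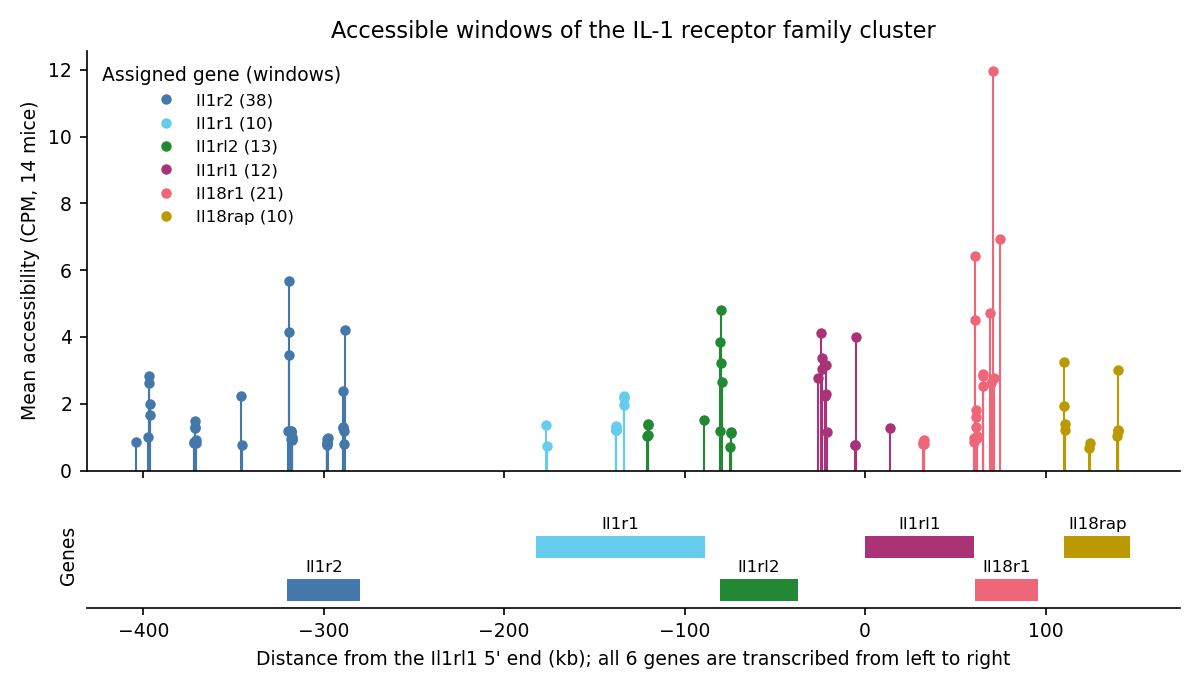
Mean accessibility of the 104 windows over 14 mice (vertical axis, CPM) by distance from the 5′ end of the longest Il1rl1 model (horizontal axis, kb), coloured by assigned gene, with gene bodies drawn to scale underneath. The highest window, at 12.0 CPM, lies in Il18r1, and most Il1rl1 windows lie in the intergenic stretch between Il1rl2 and Il1rl1.

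The windows of Il1rl1 lay mainly upstream of the gene. Of its 12 windows, 11 were upstream of the 5′ end of the longest annotated model (40404864 to 40465418), and 8 of them formed a group from -25936 to -21242 bp in the intergenic stretch after Il1rl2. The most accessible, at 40380161 to 40380362 (-24603 bp), averaged 4.12 CPM and ranked at the 76.9th percentile of all windows. The window nearest to the 5′ end, at 40399691 to 40399892 (-5073 bp), averaged 3.99 CPM. The nearest windows to the curated start sites were 7566 and 2163 bp away and were weak, at 0.802 CPM each, near the 4.97th percentile. They lay inside Il1rl1 but were assigned to Il18r1, whose start was nearer than the 5′ end of Il1rl1.

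By contrast, the IL-18 receptor genes and Il1rl2 were accessible at their starts. The most accessible window of the cluster, at 40475764 to 40475965 inside Il18r1 (+10312 bp), averaged 12.0 CPM (92.8th percentile), and the window at the Il18r1 start, at 40465506 to 40465707, averaged 6.41 CPM. Il18rap had its most accessible window at its start (40515202 to 40515403, -60 bp), at 3.27 CPM. The most accessible Il1rl2 window lay at +363 bp (40324852 to 40325053) with 4.80 CPM, and that nearest the start, at -28 bp (40324461 to 40324662), had 3.85 CPM. For the IL-1 receptors, the most accessible window of Il1r2 lay at 40085805 to 40086006 (+1213 bp from the 5′ end of its longest model and 188 bp from its curated start), with 5.67 CPM. The window nearest the 5′ end of Il1r2, at 40085186 to 40085387, had 1.19 CPM. Il1r1 was the least accessible, with 2.22 CPM at 40271202 to 40271403 (+48822 bp) and 1.37 CPM at the window nearest the 5′ end, at 40228016 to 40228217 (+5636 bp).

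In R26WT mice on day 3, these most accessible windows averaged 11.4 ± 1.96 CPM for Il18r1, 6.27 ± 0.449 for Il1r2, 4.66 ± 1.17 for Il1rl2, 4.33 ± 1.01 for Il1rl1, 3.55 ± 0.528 for Il18rap and 1.97 ± 0.661 for Il1r1 (SD, n = 4). Il18r1 was above and Il1r1 below the other 5 genes in every one of these mice. Between them, Il1r2 was above Il1rl2, Il1rl1 and Il18rap within each mouse, although its range over mice overlapped those of Il1rl2 and Il1rl1. The ranges of Il1rl2, Il1rl1 and Il18rap overlapped, and their order was not separated by the spread between mice.

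**Figure D2:**
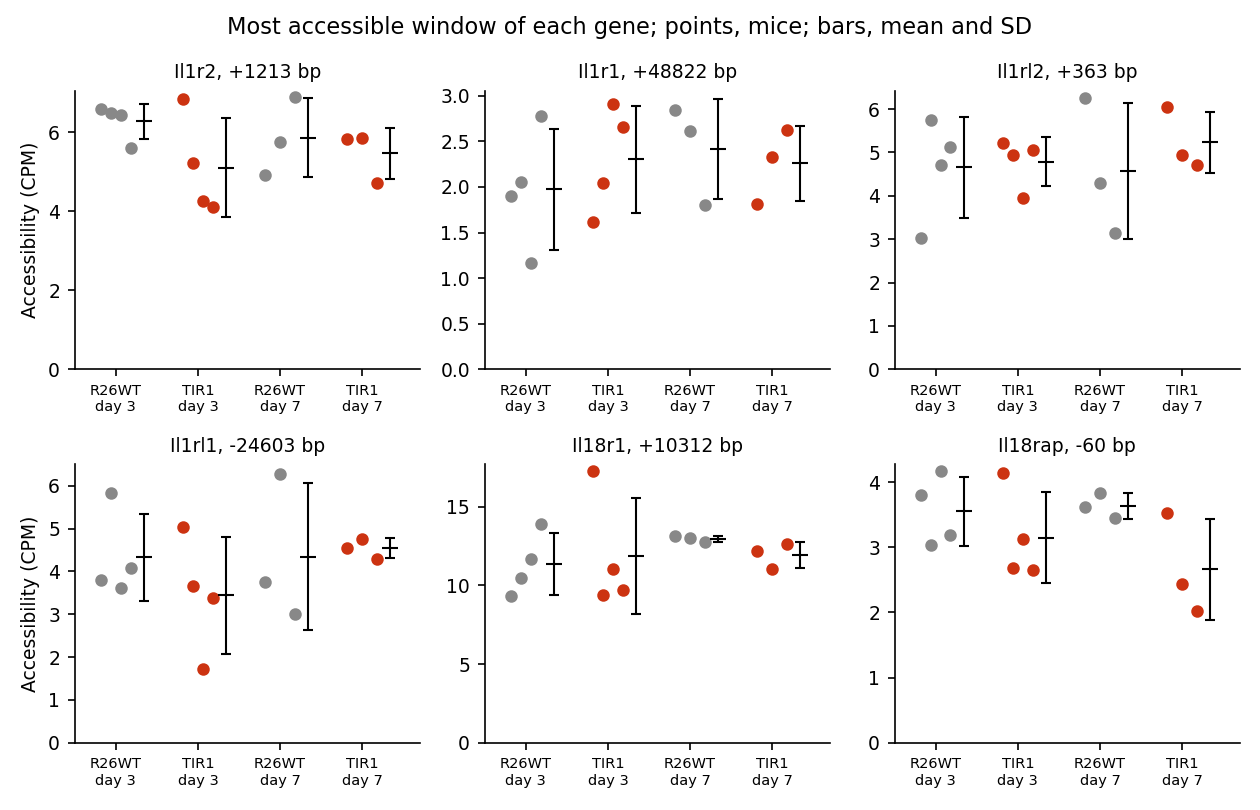
Accessibility (CPM, vertical axes from 0) of the most accessible window of each gene in each mouse, by genotype and day, with TIR1 standing for R26TIR1(F74G). Points are mice and bars are mean and SD (n = 4 on day 3, n = 3 on day 7). Genotypes overlap in every panel on day 3, and on day 7 in every panel except Il18r1, where the R26TIR1(F74G) mice lie just below.

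Whether Foxp3 degradation changed accessibility at the cluster was asked by comparing genotypes within each day. On day 7, none of 104 member windows passed the quasi-likelihood test of edgeR after Benjamini-Hochberg adjustment (smallest adjusted p = 0.695), where 0.00463% of all tested windows did. At an unadjusted p under 0.05 there were 6 member windows, 2 higher and 4 lower in R26TIR1(F74G) mice, or 5.77% of the members against a background of 5.96%. DESeq2 called 0, with 1 at an unadjusted p under 0.05. Backgrounds here and below are those of edgeR. The share of all windows is not given for DESeq2, so its unadjusted counts cannot be set against a background. On day 3, none of the 95 member windows with enough counts passed (smallest adjusted p = 0.520), where 0% of all windows did, and 10 had an unadjusted p under 0.05, 2 higher and 8 lower, or 10.5% against 7.55%. DESeq2 called 0 on day 3, with 3 unadjusted.

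With both days in 1 fit, edgeR called 0 of 104 members (smallest adjusted p = 0.582), where 0.0112% of all windows were called. The unadjusted count was 11, 4 higher and 7 lower, or 10.6% against a background of 6.73%, and DESeq2 had 9 unadjusted and 0 called. DESeq2 gave an adjusted p only among Il18r1 windows (smallest 0.909), so it could not call windows of the other genes. Over both days 70 of 104 windows were lower, or 67.3% against 49.3% of all windows, and the median log2 fold change of R26TIR1(F74G) over R26WT was -0.12 against 0.003 over all windows. Groups did not overlap for 13 of 104 windows on day 7 (3 higher, 10 lower), or 12.5% against a background of 11.8%, and for 2 of 95 on day 3, or 2.11% against 4.1%. The counts of non-overlapping groups were therefore near or below those of all windows.

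**Figure D3:**
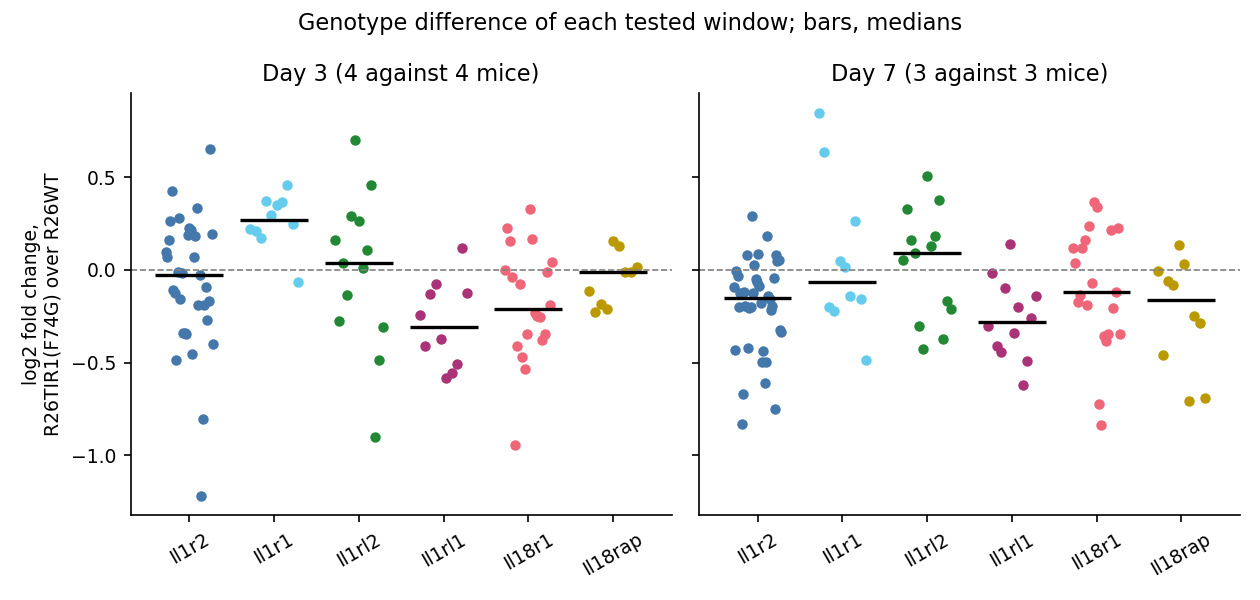
Log2 fold change of R26TIR1(F74G) over R26WT (vertical axis) for each tested window, by gene (horizontal axis), on day 3 (95 windows) and day 7 (104 windows). Points are windows, many of which overlap, and bars are medians, which for Il1rl1 are -0.31 on day 3 and -0.28 on day 7.

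For Il1rl1, the IL-33 receptor gene, most windows had lower estimates in R26TIR1(F74G) mice. On day 3, 9 of its 10 tested windows were lower in R26TIR1(F74G) mice (median log2 fold change -0.31), on day 7, 11 of 12 (-0.28), and over both days, 12 of 12 (-0.26, from -0.46 to -0.04). The corresponding shares of lower windows among all tested were 48.9%, 51.0% and 49.3%. None was called, and 2, 0 and 1 had an unadjusted p under 0.05. The windows lie close together and partly share reads, so they are not independent. Over both days, 12 of 12 were also lower under each other scaling of the libraries, and 11 of 12 without the day 3 R26TIR1(F74G) replicate 3 or without the day 7 R26TIR1(F74G) replicate 1. With only windows of a mean count of at least 50, 2 of 2 were lower over both days and on day 7. On day 3, however, 1 of 3 such windows was lower and 2 were higher (median 0.01). With windows assigned by curated start sites, an alternative chosen after seeing the data, Il1rl1 had 16 windows, of which 13 were lower over both days (median -0.24), 10 of 14 on day 3 (median -0.13) and 13 of 16 on day 7 (median -0.19). The 3 that were higher over both days (0.05, 0.15 and 0.02) were overlapping windows inside Il1rl1, which the 5′ ends had assigned to Il18r1.

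Summed over its 10 non-overlapping regions, Il1rl1 accessibility was 27.5, 30.0, 25.3 and 27.2 CPM in the R26WT mice on day 3 and 27.2, 22.3, 18.5 and 25.0 CPM in the R26TIR1(F74G) mice. On day 7 it was 21.7, 28.3 and 30.1 CPM in R26WT and 20.9, 24.9 and 23.2 CPM in R26TIR1(F74G) mice. The genotypes overlapped on both days, with 1 R26TIR1(F74G) mouse on day 3 among the controls and 1 R26WT mouse on day 7 among the degrader mice. Over the same mice the summed level of the Treg and T cell markers ranged from 87.4 to 102 CPM in R26WT and from 74.6 to 103 CPM in R26TIR1(F74G) mice on day 3, and from 86.4 to 99.6 and from 85.4 to 86.5 CPM on day 7. Their part in the Il1rl1 values was not tested.

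Its most accessible window at -24603 bp had 3.81, 5.82, 3.62 and 4.07 CPM in R26WT and 5.04, 3.65, 1.71 and 3.38 CPM in R26TIR1(F74G) mice on day 3. The day 7 values were 3.75, 6.28 and 3.00 CPM in R26WT and 4.55, 4.77 and 4.30 CPM in R26TIR1(F74G) mice. The groups overlapped on both days. The log2 fold change was -0.41 on day 3 (SE 0.22, adjusted p = 0.678), -0.02 on day 7 (SE 0.20, adjusted p = 0.997) and -0.22 over both days (95% interval -0.54 to 0.10). The Il1rl1 window with the smallest p on day 3, chosen for it, lay at 40382982 to 40383183 (-21782 bp). It had 4.33, 4.23, 4.10 and 3.54 CPM in R26WT and 2.70, 2.90, 2.01 and 3.14 CPM in R26TIR1(F74G) mice on day 3, so that every R26TIR1(F74G) mouse was below every R26WT mouse. Its log2 fold change was -0.58 (SE 0.20, unadjusted p = 0.00608, adjusted p = 0.520). On day 7 the same window had 1.94, 2.62 and 4.05 CPM in R26WT and 2.83, 3.04 and 2.93 CPM in R26TIR1(F74G) mice, with full overlap and a log2 fold change of 0.14 (SE 0.24, adjusted p = 0.969).

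**Figure D4:**
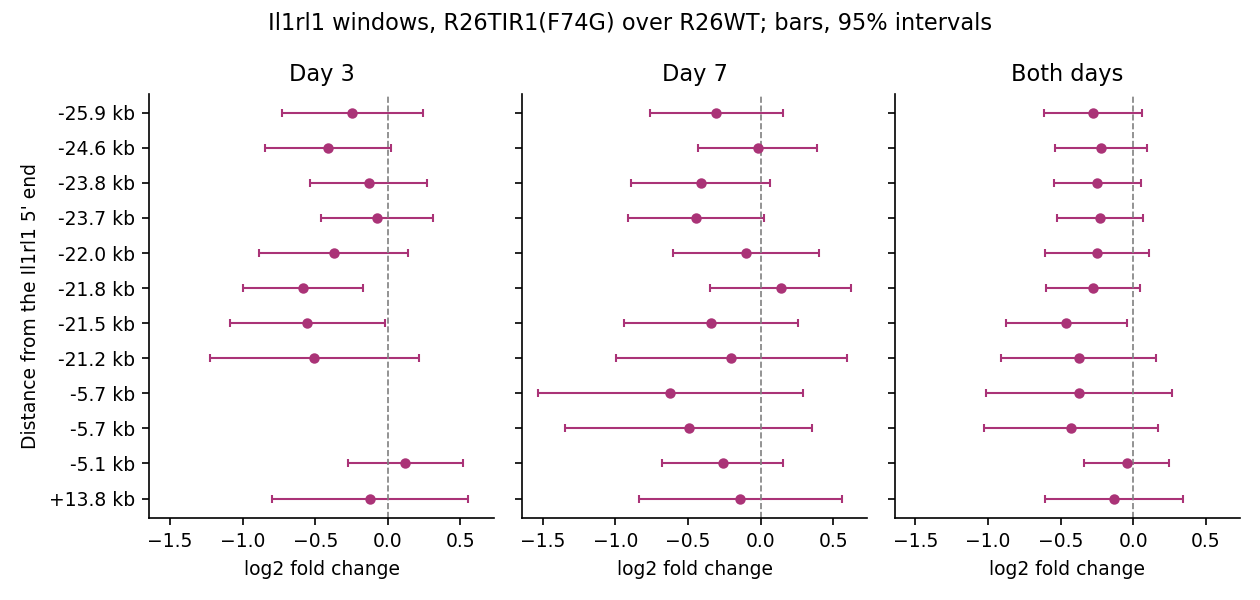
Log2 fold change of R26TIR1(F74G) over R26WT (horizontal axes) of the 12 Il1rl1 windows, ordered by distance from the 5′ end of the longest model (vertical axis), on day 3, day 7 and over both days. Points are estimates and bars their 95% intervals, and 2 windows had too few counts for day 3. All 12 points lie below 0 over both days, and the interval of 1 window, with an unadjusted p = 0.0306, stays below 0.

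For Il1rl2, the IL-36 receptor gene next to Il1rl1, 9 of 13 windows were higher and 4 lower in R26TIR1(F74G) mice over both days (median 0.06), and none was called. At an unadjusted p under 0.05 there were 3 over both days, 2 higher and 1 lower, or 23.1% against a background of 6.73%. Its most accessible window at +363 bp had 3.03, 5.75, 4.71 and 5.13 CPM in R26WT and 5.22, 4.94, 3.95 and 5.07 CPM in R26TIR1(F74G) mice on day 3. By day 7 they were 6.27, 4.30 and 3.15 CPM in R26WT and 6.04, 4.95 and 4.70 CPM in R26TIR1(F74G) mice. The genotypes overlapped fully. Its log2 fold change was 0.01 on day 3 (SE 0.19) and 0.13 on day 7 (SE 0.19), and the 95% interval over both days ran from -0.21 to 0.34. The window nearest the Il1rl2 start, at -28 bp, had a log2 fold change of 0.27 on day 3 (SE 0.19, adjusted p = 0.797). On day 7 it was 0.50 (SE 0.22, unadjusted p = 0.0270, adjusted p = 0.813), with every R26TIR1(F74G) mouse above every R26WT mouse. Over both days it was 0.37 (SE 0.15, unadjusted p = 0.0156, adjusted p = 0.642).

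The IL-18 receptor chains did not separate by genotype after adjustment. Of 21 Il18r1 windows, 16 were lower over both days (median -0.13), and of 10 Il18rap windows, 9 were lower (median -0.13), with none called and 1 at an unadjusted p under 0.05 for each gene. On day 3, 3 of 20 tested Il18r1 windows, all lower, had an unadjusted p under 0.05, or 15.0% against a background of 7.55%. For Il18rap there were 0 of 9. The most accessible Il18r1 window at +10312 bp had 9.35, 10.5, 11.7 and 13.9 CPM in R26WT and 17.3, 9.39, 11.0 and 9.73 CPM in R26TIR1(F74G) mice on day 3. Values on day 7 were 13.1, 13.0 and 12.7 CPM in R26WT and 12.2, 11.0 and 12.6 CPM in R26TIR1(F74G) mice. The day 3 groups overlapped, with the highest value in the shallowest library, and on day 7 the R26TIR1(F74G) mice all lay below the R26WT mice by a small margin. The log2 fold changes were -0.01 on day 3 (SE 0.15, adjusted p = 0.995) and -0.12 on day 7 (SE 0.14, adjusted p = 0.946). Over both days the 95% interval of -0.28 to 0.16 was the narrowest of the 6 most accessible windows, which also had the highest counts. The window at the Il18r1 start (+54 bp) had a log2 fold change of -0.41 on day 3 (SE 0.16, unadjusted p = 0.0157, adjusted p = 0.575). On day 7 it was -0.19 (SE 0.16, adjusted p = 0.917), with every R26TIR1(F74G) mouse below every R26WT mouse. Over both days it was -0.31 (95% interval -0.54 to -0.08, unadjusted p = 0.00905, adjusted p = 0.600).

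The window at the Il18rap start had 3.81, 3.04, 4.17 and 3.19 CPM in R26WT and 4.14, 2.68, 3.13 and 2.65 CPM in R26TIR1(F74G) mice on day 3. On day 7 it had 3.62, 3.84 and 3.45 CPM in R26WT and 3.53, 2.44 and 2.02 CPM in R26TIR1(F74G) mice. Day 7 values overlapped through 1 R26TIR1(F74G) mouse. Its log2 fold change was -0.23 on day 3 (SE 0.21, adjusted p = 0.848) and -0.46 on day 7 (SE 0.23, unadjusted p = 0.0484, adjusted p = 0.837).

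The receptors of IL-1 itself also gave no called window. For Il1r1, the signalling receptor, 9 of 10 windows were higher in R26TIR1(F74G) mice on day 3 (median 0.27) and 5 of 10 on day 7 (median -0.06), with none called. The day 3 median was 0.14 without the R26TIR1(F74G) replicate 3 and 0.42 without the R26WT replicate 2. On day 7 the median rested on single mice, since it was 0.34, with 8 of 10 higher, without the R26TIR1(F74G) replicate 1, -0.32, with 7 of 10 lower, without the R26TIR1(F74G) replicate 2, -0.28 without the R26TIR1(F74G) replicate 3, -0.14 without the R26WT replicate 1 and 0.12 without the R26WT replicate 2. Its most accessible window at +48822 bp had 1.90, 2.05, 1.16 and 2.77 CPM in R26WT and 1.62, 2.04, 2.91 and 2.65 CPM in R26TIR1(F74G) mice on day 3. The values of day 7 were 2.84, 2.62 and 1.80 CPM in R26WT and 1.82, 2.32 and 2.63 CPM in R26TIR1(F74G) mice. Genotypes overlapped on both days, and the log2 fold changes of 0.25 (SE 0.26) and -0.16 (SE 0.25) were smaller than their errors. The window nearest the Il1r1 5′ end (+5636 bp) had a log2 fold change of 0.22 on day 3 (SE 0.31, adjusted p = 0.916). On day 7 it was 0.85 (SE 0.36, unadjusted p = 0.0247, adjusted p = 0.810), and the genotypes overlapped.

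For Il1r2, the decoy receptor, 30 of 38 windows were lower in R26TIR1(F74G) mice on day 7 (median -0.15) and 19 of 33 on day 3 (median -0.03), with none called. Its most accessible window at +1213 bp had 6.58, 6.48, 6.42 and 5.61 CPM in R26WT and 6.83, 5.20, 4.25 and 4.10 CPM in R26TIR1(F74G) mice on day 3. On day 7 it had 4.91, 5.76 and 6.90 CPM in R26WT and 5.83, 5.84 and 4.70 CPM in R26TIR1(F74G) mice. One R26TIR1(F74G) mouse was highest on day 3 and the other 3 were below the R26WT mice. The log2 fold change was -0.35 on day 3 (SE 0.17, adjusted p = 0.662) and -0.06 on day 7 (SE 0.18, adjusted p = 0.983).

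The member windows with the smallest p, chosen for it, also lay in Il1r2 on day 7 and over both days. The day 7 window at 40115348 to 40115549 (+30756 bp) had 2.52, 3.37 and 3.30 CPM in R26WT and 1.87, 1.37 and 2.12 CPM in R26TIR1(F74G) mice, without overlap. Its log2 fold change was -0.75 (SE 0.25, unadjusted p = 0.00495, adjusted p = 0.695), and on day 3 it was -0.09 (SE 0.23). The window over both days, at 40116498 to 40116699 (+31906 bp), had 5.23, 4.83 and 6.45 CPM in R26WT and 3.96, 4.29 and 4.45 CPM in R26TIR1(F74G) mice on day 7. On day 3 it had 3.81, 4.23, 4.51 and 3.90 CPM in R26WT and 4.50, 2.68, 2.76 and 3.22 CPM in R26TIR1(F74G) mice. The genotypes were apart on day 7 and overlapped on day 3 through 1 R26TIR1(F74G) mouse, with a log2 fold change of -0.37 over both days (SE 0.14, unadjusted p = 0.00760, adjusted p = 0.582).

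Day 7 was compared with day 3 over both genotypes, a contrast in which the day of treatment cannot be told apart from collection and library preparation. edgeR called 0 of 104 member windows (smallest adjusted p = 0.786), where 0.00332% of all windows were called, and 11 had an unadjusted p under 0.05, 8 higher and 3 lower on day 7, or 10.6% against a background of 5.47%. DESeq2 called 0, with 10 unadjusted. The smallest p belonged to the same Il1r2 window at +31906 bp, which was higher on day 7 by a log2 fold change of 0.41 (SE 0.13, unadjusted p = 0.00341, adjusted p = 0.786). The median over Il1rl1 windows was -0.02, with 6 higher and 6 lower. For Il1r2, 25 of 38 windows were higher on day 7 (median 0.12), and for Il1r1, 2 of 10 (median -0.17). The counts were 10 of 21 for Il18r1 (median -0.01), 6 of 13 for Il1rl2 (median -0.02) and 5 of 10 for Il18rap (median 0.02). Of all windows, 51.2% were lower on day 7.

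Whether the genotype difference itself changed from day 3 to day 7 was tested by the interaction of both terms. edgeR called 0 of 104 members (smallest adjusted p = 0.763) and 0% of all windows, and 4 members had an unadjusted p under 0.05, 3 higher and 1 lower, or 3.85% against a background of 6.32%. DESeq2 called 0, with 3 unadjusted. The smallest p was that of an Il18r1 window at 40466163 to 40466364 (+711 bp), with an interaction of 0.90 on the log2 scale (SE 0.39, unadjusted p = 0.0237, adjusted p = 0.763). It had 2.51, 1.46, 2.05 and 2.60 CPM in R26WT and 1.44, 1.50, 1.12 and 1.85 CPM in R26TIR1(F74G) mice on day 3. On day 7 it had 1.87, 1.40 and 1.50 CPM in R26WT and 1.87, 2.03 and 2.28 CPM in R26TIR1(F74G) mice. R26TIR1(F74G) values were mostly lower on day 3 and higher on day 7, with overlap on both days.

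Other genes of the pathway gave no called window either. Of 28 genes encoding IL-1 family ligands and antagonists, shared or inhibitory chains and signalling proteins, 24 had windows, 394 in all. Unadjusted p values under 0.05 were found for 24 of 392 tested windows on day 7 (6.12%, 14 higher and 10 lower) and 21 of 385 on day 3 (5.45%, 8 higher and 13 lower), and over both days for 26 of 394 (6.60%, 15 higher and 11 lower). The shares of all tested windows were 5.96%, 7.55% and 6.73% in the same order. For the shared or inhibitory chains the shares were 11.5% (0 higher and 3 lower), 11.1% (3 higher and 0 lower) and 18.5% (3 higher and 2 lower). Those of ligands and antagonists were 2.94%, 0% and 0%, and those of signalling proteins were 6.02%, 5.52% and 6.31%. Il1rap, the accessory chain that pairs with the products of Il1r1, Il1rl1 and Il1rl2, was far more accessible at its start than any member, at 36.0 CPM, with log2 fold changes of 0.03 on day 3 (SE 0.12, adjusted p = 0.974) and -0.05 on day 7 (SE 0.13, adjusted p = 0.983). Of all Il1rap windows, 3 of 18 on day 7, 3 of 19 on day 3 and 4 of 19 over both days had an unadjusted p under 0.05. The start of Myd88 had 15.7 CPM, with -0.20 on day 3 (SE 0.13) and 0.07 on day 7 (SE 0.13). Among the ligands, the 2 windows of Il33 did not reach within 1 kb of its start and had up to 1.76 CPM, and Il36a, Il36b, Il36g and Il36rn had none.

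Genes whose summed accessibility varied across the 14 mice most like that of Il1rl1 were not members of the cluster. Over 12277 other genes, Pearson's r of log2 CPM (pseudocount 0.5) with Il1rl1 was highest for Arpc3 (0.88), Helz (0.87), Wiz (0.85), Engase (0.85) and Il10ra (0.84), where the 99th percentile was 0.69. Within the cluster r was 0.47 for Il18r1, 0.34 for Il1r2, 0.08 for Il18rap, 0.07 for Il1r1 and -0.53 for Il1rl2. These are descriptions over 14 libraries that share genotype, day, depth and normalization.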

How the data were processed

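ATAC-seq libraries of Treg cells from 14 mice were grouped by genotype and day as their labels state. The authors aligned reads with bowtie2 to mm10 (GRCm38), called peaks with MACS2, kept and merged peaks reproducible between replicates, and used featureCounts to count reads per summit window. These raw counts were deposited. Duplicate handling and the transposase offset were fixed before deposit.

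Tools were R 4.3.3 with edgeR 4.0.16, DESeq2 1.42.0 and limma 3.58.1, and Python 3.11.15. As the main test, windows that averaged 10 or more counts in the libraries compared were normalized by TMM and fitted by quasi-likelihood in edgeR, with Benjamini-Hochberg adjustment over all windows and a threshold of 0.05. The scripts were tested on simulated counts. Windows were assigned to the nearest 5′ end of a protein-coding gene in RefSeq coordinates of GRCm38. Named windows are, for each gene, the most accessible and the one nearest its 5′ end, and, for each comparison without a called window, the one with the smallest p. The members and gene lists were chosen with earlier results of these data known. Window coordinates are as in the row names. Window sequences were not read, since the genome at hand is of another build. Alternatives were DESeq2, other normalizations, count filters, distances and pseudocounts, the replicate number and the mouse name prefix as terms, and each mouse left out in turn. Removing the filter changed nothing in the fits of all 14 libraries, where every window passed it. The p-values measure the spread between these mice only, and reads were amplified by PCR without molecular identifiers and cannot be taken as independent molecules.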

Additional observations from a re-analysis of the deposited data

Results flagged for a closer look

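In 44 groups of 4 mice on day 3, made of the named windows and the summed regions of each gene in each genotype, 3 values stood apart from the other mice of their group by Dixon's ratio at its 95% critical value, where chance gives about 1 in 20 groups, or 2.2. All were in R26WT mice. The most accessible Il1r2 window had 5.61 CPM in replicate 4, against 6.42, 6.48 and 6.58 CPM in the others. The Il1r1 window nearest its 5′ end had 0.992 CPM in replicate 2, against 1.37, 1.38 and 1.42 CPM. The Il1r2 window nearest its 5′ end had 2.25 CPM in replicate 1, against 1.00, 1.09 and 1.12 CPM.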

How the results depend on the processing

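Under edgeR, DESeq2 and every alternative run, 0 member windows were called in each of the 5 comparisons, and the smallest adjusted p over the alternatives was 0.388 on day 3, 0.475 on day 7, 0.265 over both days, 0.507 for day and 0.532 for the interaction. This held with start sites within 20 kb (49 windows) or 1 Mb (104) and with curated start sites (110), the last chosen after seeing the data. Over both days DESeq2 gave an adjusted p only among Il18r1 windows, so its count of 0 is no test of the other genes. Unadjusted counts ranged from 1 to 10 on day 3, from 1 to 9 on day 7 and from 3 to 13 over both days, the low end with DESeq2 or with a filter at a mean count of 50, which left 12, 15 and 13 windows to test. The mouse name prefix, which is E for 4 of the 14 mice, gave 7, 3 and 13. The prefix is E for R26WT replicate 4 and R26TIR1(F74G) replicates 3 and 4 on day 3, which is unbalanced between genotypes. On day 7 only the R26TIR1(F74G) replicate 3 has it, so the term there amounts to leaving that mouse out. Replicate numbers did not pair the mice (correlations of deviations from -0.08 to 0.07), and the replicate block gave 8, 5 and 9 unadjusted windows, 5 for the interaction and 0 calls, with no value for day. The shares of all windows under these alternatives are not given, so their unadjusted counts cannot be set against a background. For Il1rl1, the median log2 fold change over both days ran from -0.32 to -0.10. On day 3 it was -0.18 without the R26TIR1(F74G) replicate 3 and 0.01 with the filter at 50, which left 3 windows. The cause was not tested. Of 522 alternative log2 fold changes of the most accessible windows and those with the smallest p, 39 changed sign, all in most accessible windows whose reported values were within 1 standard error of 0. Values with changed sign on day 7 were, for Il1rl1, 0.0154 with DESeq2, 0.0587 with the replicate block, 0.0250 with the prefix and -0.168 to 0.382 with mice left out. For Il1rl2 they ran from -0.00586 to 0.423 with mice left out, and for Il1r2 they were 0.0334 with the prefix and -0.180 to 0.0337 with mice left out. On day 3, Il1rl2 had -0.000863 with the replicate block and -0.132 to 0.124 with mice left out. Il18r1 had 0.0408 with total counts, 0.0827 with loess offsets, 0.0733 with the filter at 50, 0.0142 with DESeq2 and -0.189 to 0.109 with mice left out. Over both days, Il1rl2 ran from -0.00540 to 0.163 with mice left out, and Il1r1 had -0.0953 with the prefix and -0.0447 to 0.151 with mice left out. For day, Il1r2 had -0.00179 with total counts, -0.0101 with loess offsets, -0.0150 with the filter at 50, -0.0610 with the prefix and -0.0415 to 0.0766 with mice left out, Il1rl2 ran from -0.0251 to 0.147 and Il18rap from -0.149 to 0.0262 with mice left out. Depth limits these values, with a median mean count of 18.2 per member window.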
